A study of Homo sapiens with 2 samples.

Results

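The junction genes of endothelial cells, 9 in number, were followed in HUVECs, primary endothelial cells from the human umbilical vein. They were CDH5, CTNNB1, CLDN5, OCLN, TJP1, ESAM, F11R, JAM2 and JAM3, chosen by symbol as genes of adherens and tight junctions, and all 9 were present among the 36601 genes of the files. The HUVECs had been grown to confluence under medium flow for about 48 hours in devices with 50 µm channels. They were then perfused for 4 hours with 1 of 2 red cell suspensions. In the first, 5% of the red cells were pharmacologically dehydrated (pdRBC) and the rest were healthy (5% pdRBC). In the second, all were healthy (hRBC). The dehydrated cells had been made from healthy ones with nystatin and sucrose, to a mean haemoglobin concentration of 40 to 42 g/dL, as a model of the stiff red cells of sickle cell disease. Each suspension is represented by 1 library of 10x Genomics 5′ single-cell RNA sequencing, so there is no replicate, no p-value was computed, and treatment, device, cell batch and library cannot be told apart.

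Adherens junctions join neighbouring cells through cadherins, which are tied to the actin skeleton by catenins. Tight junctions seal the gap between cells with claudins, occludin and members of the JAM family, held together by scaffold proteins such as ZO-1. In endothelium both kinds lie intermixed along the lateral border and set how easily fluid, proteins and leukocytes pass through the vessel wall.

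The libraries differed in depth, and this touches every value below. The 5% pdRBC library held 1635 barcodes with a median of 9425 UMIs (unique molecular identifiers, 1 per captured RNA molecule), and the hRBC library 3858 barcodes with a median of 1381. After filtering and clustering, 1587 5% pdRBC cells and 2542 hRBC cells lay in clusters with endothelial markers, called endothelial-like, with 16099581 and 13308390 UMIs. Clusters 0 and 2 held most of the 5% pdRBC cells, with 493 and 469, whereas cluster 4 alone held 1004 of the hRBC cells. The libraries shared 9 cell barcodes. All 10 endothelial markers were measured, at a summed 3811 CPM (the UMIs of a gene relative to all UMIs summed) in 5% pdRBC cells and 4028 CPM in hRBC cells; 3 of them, CDH5, CLDN5 and ESAM, are also among the 9 genes. Markers of red cells came to 1 and 12 UMIs, of leukocytes to 9 and 6, and of platelets to 11 and 9, in 5% pdRBC and hRBC cells, with 5 of 6, 5 of 8 and 3 of 5 markers at 0 in each library. Of the fibroblast and mural markers 6 of 9 were too low to measure, among them COL1A1, DCN, PDGFRB and ACTA2, and the summed level was 347 CPM in 5% pdRBC and 394 CPM in hRBC. RGS5, a gene known from mural cells, made up most of it at 328 and 369 CPM. PDGFRA had 5.71 and 6.54 CPM, and TAGLN, at 10.2 and 14.2 CPM, was lower in 5% pdRBC. Of the epithelial markers EPCAM and CDH1 were too low, and keratins gave 116 and 162 CPM. KRT18 (1.42-fold, 1.32 to 1.52) and KRT19 (2.08-fold, 1.55 to 2.85) were lower in 5% pdRBC. KRT8 was at 18.3 and 20.4 CPM. Of 4 lymphatic markers only FLT4 was measured, and the 4 summed to 13.6 and 10.3 CPM. FLT4 was 1.41-fold higher in 5% pdRBC (1.08 to 1.87), at 9.13 and 6.46 CPM. The 10 cell cycle markers summed to 147 CPM in 5% pdRBC cells and 218 CPM in hRBC cells. By the 1.25-fold rule given below, 9 of them were called lower in 5% pdRBC, beside 3.62% of all measured genes. The remaining marker, MKI67, was at 27.6 and 31.4 CPM.

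CDH5 gave the most junction UMIs. It encodes VE-cadherin, the cadherin that holds endothelial adherens junctions together. It reached 612 CPM (95% counting interval 600 to 624) in 5% pdRBC cells and 659 CPM (645 to 673) in hRBC cells, ranking 207 and 195 among all genes. CDH5 alone made up 45.8% and 48.3% of all UMIs of the 9 genes. ESAM, an adhesion molecule of endothelial tight junctions, had 253 CPM (246 to 261) in 5% pdRBC cells and 267 CPM (258 to 276) in hRBC cells. CTNNB1, which encodes β-catenin, the link between cadherin and α-catenin and also a transcriptional coactivator of Wnt signalling, stood at 174 CPM (168 to 181) in 5% pdRBC cells and 160 CPM (153 to 167) in hRBC cells. The intervals of the libraries were apart for CDH5 and overlapped for ESAM, and those of CTNNB1 were apart, with 5% pdRBC on the higher side.

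Of the scaffold and sealing proteins, TJP1, which encodes the scaffold ZO-1, had 126 CPM (121 to 132) in 5% pdRBC cells and 131 CPM (125 to 138) in hRBC cells. JAM3, which encodes the adhesion molecule JAM-C, had 86.8 CPM (82.3 to 91.4) in 5% pdRBC cells and 78.9 CPM (74.2 to 83.8) in hRBC cells. CLDN5, the main claudin of endothelium, had 54.7 CPM (51.1 to 58.4) in 5% pdRBC cells and 40.7 CPM (37.3 to 44.2) in hRBC cells. F11R, the gene of JAM-A, had 25.9 CPM (23.5 to 28.5) in 5% pdRBC cells and 24.0 CPM (21.4 to 26.7) in hRBC cells. Among these 4 genes the intervals of the libraries were apart for CLDN5 and overlapped for the other 3.

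OCLN and JAM2 were close to the limit of detection and fell under the 100 UMIs over both libraries at which a gene counts as measured. OCLN, the gene of occludin, had 53 UMIs in 5% pdRBC cells and 30 UMIs in hRBC cells, or 3.29 CPM (2.47 to 4.31) and 2.25 CPM (1.52 to 3.22). JAM2, the gene of JAM-B, had 2 UMIs in 5% pdRBC cells and 8 in hRBC cells, a ratio of 0.243 with a counting interval of 0.0214 to 1.04. Both intervals held 1 (0.916 to 2.37 for the OCLN fold of 1.45). That of JAM2 left out 1 with all barcodes (0.211, 0.0189 to 0.832) and with the stricter cell filter (0.214, 0.0189 to 0.913), from 2 UMIs in 5% pdRBC in each case.

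**Figure D1:**
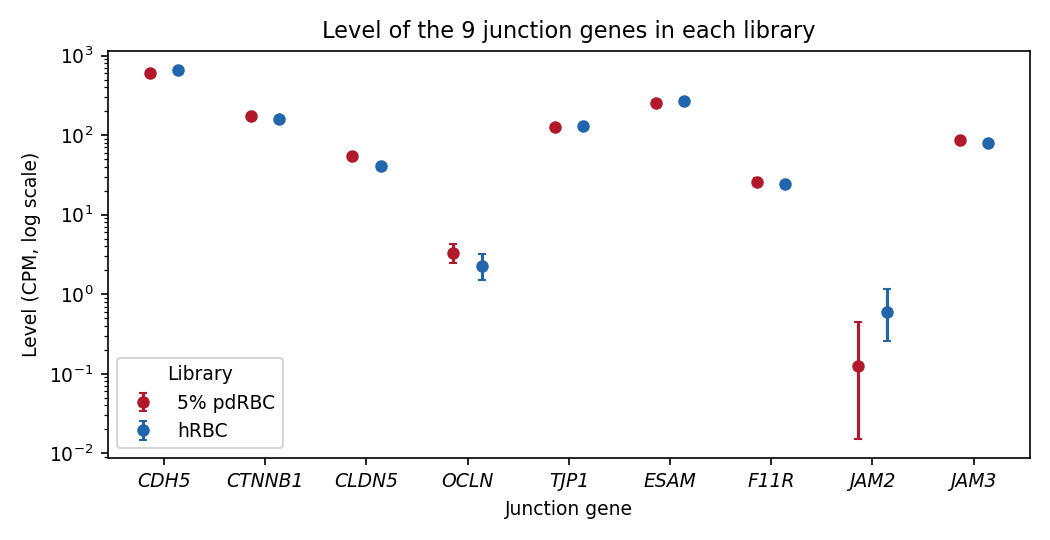
Level of each junction gene in CPM on a log axis, summed over endothelial-like cells of the 5% pdRBC library (red, left) and the hRBC library (blue, right), with 95% counting intervals. CDH5 is highest at 612 and 659 CPM, OCLN and JAM2 lie near the bottom, and the intervals of the libraries are apart for CDH5, CTNNB1 and CLDN5.

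Levels of different genes are compared per kilobase of the gene's longest principal coding transcript in the annotation. On that scale CDH5 (148 CPM per kb in 5% pdRBC cells and 160 in hRBC cells) and ESAM (139 and 146 CPM per kb) were nearly level. The next pair changed places between the libraries. In 5% pdRBC cells CLDN5, at 39.8 CPM per kb, lay above CTNNB1 at 36.8, with overlapping intervals, whereas in hRBC cells CTNNB1 at 33.7 lay above CLDN5 at 29.6, with intervals apart. JAM3 (22.2 and 20.2 CPM per kb), TJP1 (15.9 and 16.5), F11R (5.36 and 4.96) and OCLN (0.511 and 0.35) followed in the same order in both libraries, with JAM2 last. OCLN and JAM2 could not be ordered in hRBC cells, where their intervals overlapped. Since 5′ libraries tag 1 end of each molecule, dividing by length may underrate long transcripts. In CPM without that division the order was CDH5, ESAM, CTNNB1, TJP1, JAM3, CLDN5, F11R, OCLN and JAM2 in both libraries, with no overlap between neighbours.

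The genes lie on 8 chromosomes (GRCh38, GENCODE 29). CDH5 spans chr16:66366622-66404786 on the forward strand with 13 exons in that transcript, and CTNNB1 spans chr3:41194741-41260096 on the forward strand with 15 exons. CLDN5 is a compact gene at chr22:19523024-19527545 on the reverse strand, with 1 exon and 1.37 kb of transcript. TJP1 is the longest, at chr15:29699367-29968865 on the reverse strand, with 28 exons and 7.95 kb of transcript. ESAM (chr11:124752583-124762290, reverse strand) and JAM3 (chr11:134068925-134152001, forward strand) are on the same chromosome. OCLN is at chr5:69492292-69558104, F11R at chr1:160995211-161021348 and JAM2 at chr21:25639272-25717562. Protein-coding genes on the opposite strand overlap CTNNB1 (ULK4), JAM2 (ATP5PF) and JAM3 (NCAPD3), and OCLN has a pseudogene copy, OCLNP1. Whether strand was used in counting is not given in the sources used here, so UMIs of these pairs may be mixed.

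The perfusion with 5% pdRBC went with small differences in most junction genes and a larger one in CLDN5. Among the 7 measured genes, only CLDN5 was at least 1.25-fold apart with a counting interval that left out 1: it was 1.34-fold higher in 5% pdRBC cells (1.21 to 1.5), a log2 fold of 0.43. None was 1.25-fold lower. Among all 11040 measured genes 5.24% were called higher and 3.62% lower by the same rule, so a single call among 7 genes is not read as a property of the junction genes. None of the 7 passed 1.5-fold, which 1.57% of all genes did upwards and 1.11% downwards. CLDN5 lay at percentile 96.4 of all log2 folds. Its call was lost without a cluster of 17 cells described below (1.23-fold, 1.1 to 1.37) and with every cell thinned to 2000 UMIs (1.11-fold, 0.876 to 1.42). Thinned to 5000 UMIs, 1370 5% pdRBC cells held 378 CLDN5 UMIs and 769 hRBC cells held 151. Thinned to 1000 UMIs, 1587 5% pdRBC cells held 89 and 2542 hRBC cells held 109. Folds were not computed at these depths, so the loss of the call with thinning is shown for 1 random draw at 2000 UMIs only. Without thinning, the call was kept in cells of 5000 or more UMIs, at 1.32-fold (1.18 to 1.49).

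The other 6 measured genes split evenly around no difference. CDH5 had a fold of 0.929 (0.903 to 0.956), that is 1.08-fold lower in 5% pdRBC cells, and ESAM 0.949 (0.907 to 0.993), or 1.05-fold lower. CTNNB1 was at 1.09-fold (1.03 to 1.16) and JAM3 at 1.1-fold (1.01 to 1.19). All 4 intervals left out 1 but all 4 folds were under 1.25. With CLDN5, 3 of the 7 genes had intervals above 1 and 2 had intervals below 1. Among all measured genes the shares were 15.2% and 12.4%. Intervals narrow as the UMIs of a gene rise, so these counts are not read as a property of the junction genes. TJP1 at 0.96 (0.9 to 1.02) and F11R at 1.08 (0.932 to 1.25) had intervals that held 1. The median log2 fold over the 7 genes was 0.11, against 0.02 over all measured genes, whose middle 50% lay between -0.10 and 0.14. Summed over all 9 genes, junction UMIs made up 1337 CPM in 5% pdRBC cells and 1364 CPM in hRBC cells. The intervals cover counting error only and hold neither the spread between devices nor that between cells.

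**Figure D2:**
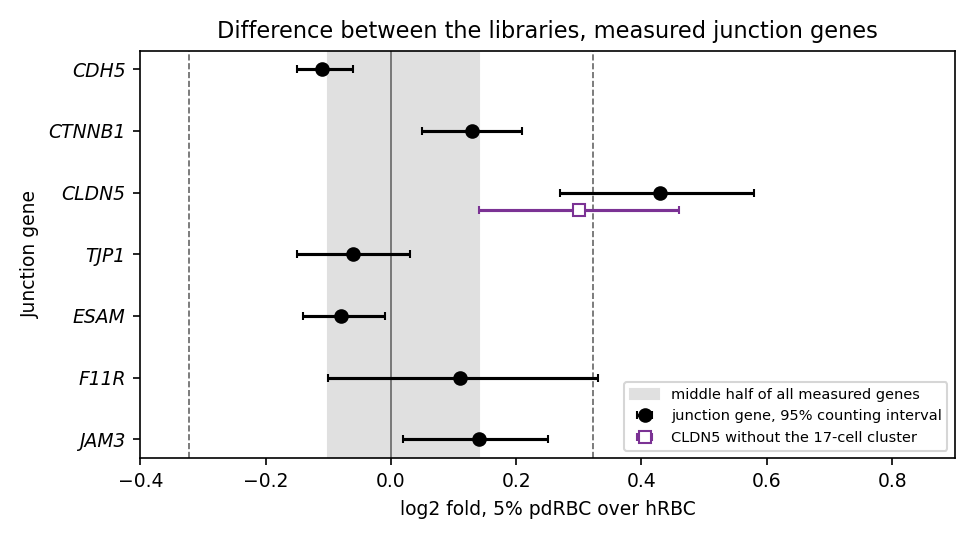
Log2 fold of 5% pdRBC over hRBC for the 7 measured junction genes with 95% counting intervals, the middle 50% of all measured genes in grey and 1.25-fold either way as dashed lines. CLDN5 alone lies past a dashed line at 0.43, and without a cluster of 17 cells it lies inside it at 0.30 (open square).

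The share of cells with a UMI gave a closer look at how widely each gene was detected. Because 5% pdRBC cells were deeper, each cell was thinned to 2000 UMIs, which left out 37 5% pdRBC and 1176 hRBC cells with fewer and kept 1550 and 1366. CDH5 was then seen in 65.6% of 5% pdRBC cells (exact binomial 95% interval 63.2 to 68) and in 71.7% of hRBC cells (69.3 to 74.1), intervals that do not overlap. ESAM was seen in 37% of 5% pdRBC cells (34.6 to 39.4) and in 40.3% of hRBC cells (37.7 to 43). For CLDN5 the shares were 8% (6.7 to 9.46) and 8.13% (6.73 to 9.7), and the CLDN5 level itself was 1.11-fold in 5% pdRBC over hRBC in these thinned cells (0.876 to 1.42). At 1000 UMIs, where all 1587 and 2542 cells were kept, CLDN5 was seen in 5.23% of 5% pdRBC cells (4.19 to 6.44) and 4.01% of hRBC cells (3.28 to 4.85), intervals that overlap. CTNNB1 (28.7% and 27%), TJP1 (22% and 23.9%), JAM3 (15.5% and 15.8%) and F11R (4.65% and 4.69%) had overlapping intervals too. OCLN was seen in 0.839% of 5% pdRBC cells and 0.512% of hRBC cells. JAM2 was seen in 0 of 1550 5% pdRBC cells, and in 0.146% of hRBC cells. Taken as up to 3 counts, that 0 allows a share of up to 0.194%, and the exact binomial interval reaches 0.238%; both limit cells with a UMI at this depth, not cells that express the gene.

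At 5000 UMIs per cell, with 1370 and 769 cells left, CDH5 was seen in 92.1% of 5% pdRBC cells (90.6 to 93.5) and in 94% of hRBC cells (92.1 to 95.6). CLDN5 was seen in 19.1% (17.1 to 21.3) and 15.6% (13.1 to 18.4) of them. Nearly every deep HUVEC therefore had VE-cadherin transcripts, while CLDN5 was caught in a minority of cells in both libraries. Without thinning the shares followed depth: 94.4% and 76.4% for CDH5, 81.3% and 54.7% for ESAM, and 30% and 13.4% for CLDN5, in 5% pdRBC and hRBC cells. Nearly all kept cells were endothelial-like, so there were no cells that should lack these genes with which to measure the part that free RNA has in these shares.

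**Figure D3:**
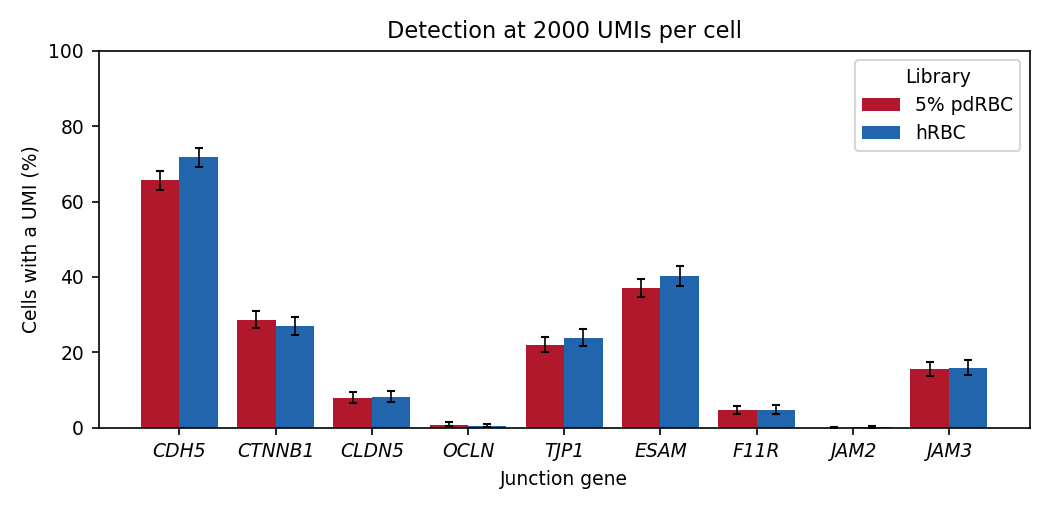
Percent of cells with at least 1 UMI of each junction gene after thinning every cell to 2000 UMIs, in 1550 5% pdRBC cells (red, left) and 1366 hRBC cells (blue, right), with exact binomial 95% intervals. CDH5 leads at 65.6% and 71.7%, and the CLDN5 bars are level at 8% and 8.13%.

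Within single cells the junction genes were seen a few at a time. At 2000 UMIs the median cell had UMIs of 2 of the 9 genes in both libraries, and the most in any cell was 6 in 5% pdRBC and 5 in hRBC. None of the 9 was seen in 10.5% of 5% pdRBC cells and 7.61% of hRBC cells, and 3 or more were seen in 25.2% and 27.7%. The CDH5 count itself was spread over cells rather than held by a few: 31.9% of 5% pdRBC cells had 1 UMI, 18.9% had 2 and 14.8% had 3 or more, with 32.7%, 22.5% and 16.5% in hRBC cells. Cells with and without a CDH5 UMI differed little in the other genes. JAM3 was seen in 17.1% of 5% pdRBC cells with CDH5 and 12.6% of those without, and in 16.3% and 14.5% of hRBC cells with and without it. For ESAM the shares were 38.2% with and 34.5% without in 5% pdRBC, and 42% and 36% in hRBC.

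The differences between libraries also varied with the depth of cells. In cells of 10000 or more UMIs, of which there were 726 in 5% pdRBC and 538 in hRBC, CDH5 was level at 628 and 637 CPM (fold 0.985, 0.949 to 1.02). In cells of 5000 to under 10000 UMIs it was 587 CPM in 5% pdRBC and 689 CPM in hRBC (0.852, 0.796 to 0.911), and in cells of 2000 to under 5000 UMIs 573 and 694 CPM (0.826, 0.732 to 0.929). The lower CDH5 of the 5% pdRBC library was thus seen in the bins under 10000 UMIs. CLDN5 was on the higher side in each of these bins. It was at 49.9 and 40.3 CPM in the deepest cells (1.24, 1.08 to 1.43). In the middle bin it was at 64.5 and 45.8 CPM (1.4, 1.1 to 1.82), from 326 UMIs in 5% pdRBC. In the shallow bin it was at 49 and 41.3 CPM, with an interval that held 1. The bins include the 17 cells of cluster 11 described below, which held 83 CLDN5 UMIs at a median depth of 6637 UMIs. Folds by bin without those cells were not computed. CTNNB1 was 1.4-fold higher in 5% pdRBC (1.15 to 1.7) in the shallow bin, at 248 and 178 CPM. In the deepest it was at 1.1-fold (1.02 to 1.19). The shallow bin held 180 5% pdRBC and 597 hRBC cells. Cluster 10, described below, had a median depth of 2645 UMIs in 5% pdRBC and 2108 UMIs in hRBC. CTNNB1 was at 382 and 308 CPM there. The part of such clusters in the folds by bin was not tested. The share of all genes past 1.25-fold was not computed by bin. JAM3 in the deepest cells had 85.1 CPM in 5% pdRBC and 72.4 CPM in hRBC (1.18, 1.06 to 1.31).

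The HUVECs were not uniform, and the junction genes were compared over clusters of cells with similar transcriptomes. None of the 9 genes was among the 2000 variable genes that made the clusters, but the clusters come from the same cells, so levels by cluster are descriptions. Among them, 5 clusters held at least 50 cells of both libraries: cluster 0, led by GEM, EGR1, FOSB and KLF4; cluster 2, led by SETBP1, DACH1 and MAGI1; cluster 4, led by WWTR1-AS1 and BEST1; cluster 5, led by FABP4, MGP and CXCL12; and cluster 6, the cycling cells, led by AURKB, CDK1 and UBE2C. EGR1, FOSB and KLF4 are genes of the immediate early and flow responses. Over these and the further clusters of 50 or more cells in a library, 12 combinations of cluster and library in all, CDH5 ranged from 382 to 769 CPM and CLDN5 from 12.7 to 69.6 CPM. The ranges were 118 to 382 CPM for CTNNB1, 102 to 326 CPM for ESAM, 76.4 to 217 CPM for TJP1, 45.1 to 198 CPM for JAM3 and 17.5 to 37 CPM for F11R.

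Some contrasts between clusters recurred in both libraries. Cycling cells had less CDH5 than the other large clusters, at 457 CPM in 5% pdRBC and 478 CPM in hRBC, where cluster 0 had 699 and 717 CPM. CLDN5 was highest among the 5 shared clusters in cluster 5, at 69.6 CPM (60.1 to 80.1) in 5% pdRBC and 58.9 CPM (49.5 to 69.5) in hRBC. In hRBC that interval overlapped those of clusters 2 and 4. F11R was lower in cluster 0 (17.5 and 19.7 CPM) than in cluster 2 (32.8 and 28.8 CPM) or cluster 5 (37 and 27.5 CPM). In 5% pdRBC the F11R interval of cluster 0 was apart from those of clusters 2 and 5, and in hRBC it overlapped both. ESAM was lowest of the 5 in cluster 2 in both libraries, at 202 and 236 CPM.

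**Figure D4:**
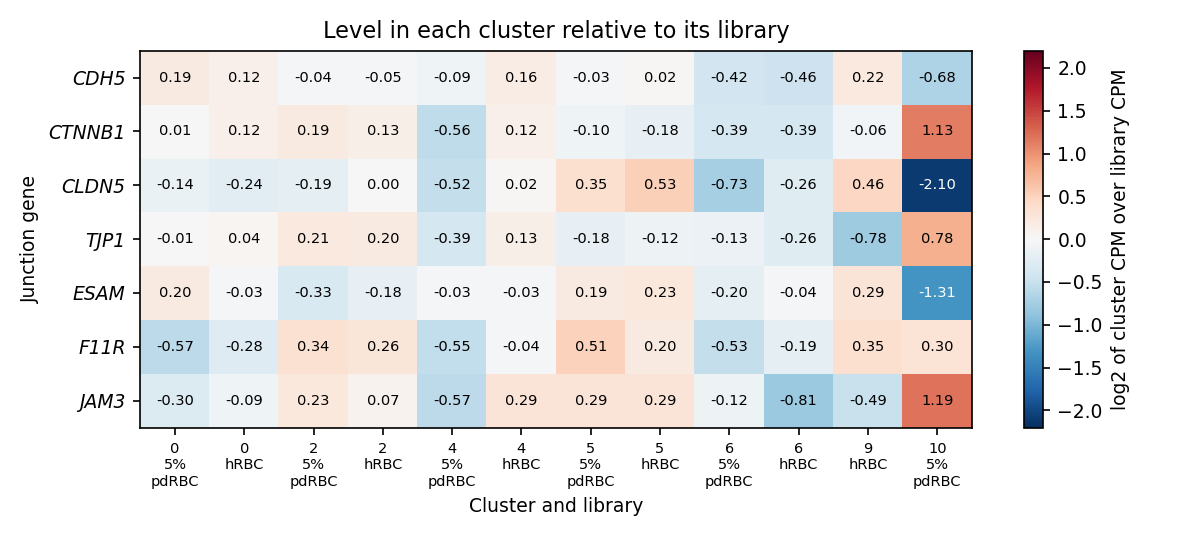
Log2 of each measured junction gene's CPM in a cluster over its CPM in the whole library, for the 12 combinations of cluster and library with 50 or more cells, 5% pdRBC left of hRBC. Cluster 10 stands apart with CLDN5 at -2.10, ESAM at -1.31, CTNNB1 at 1.13 and JAM3 at 1.19, and cycling cluster 6 is low in CDH5 at -0.42 and -0.46.

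Within clusters 2 and 5 none of the 7 measured genes was called, that is at least 1.25-fold apart with an interval that left out 1, where 12.5% and 10.5% of all genes measured there were. F11R in cluster 5 was at 1.34-fold, with 37 CPM in 5% pdRBC and 27.5 CPM in hRBC, but its interval of 0.974 to 1.86 held 1. In cluster 0, where 16.3% of genes were called, CLDN5 alone was, at 49.5 CPM in 5% pdRBC and 34.4 CPM in hRBC (1.44-fold higher, 1.17 to 1.79). Cells of 5000 or more UMIs in that cluster gave 1.5-fold (1.21 to 1.89). CLDN5 in clusters 2 and 5 was at 1.18-fold with intervals that held 1, and in cluster 6 it was level at 32.9 and 33.9 CPM. Whether its fold differs between clusters was not tested.

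JAM3 differed in the cycling cells. In cluster 6 it had 138 UMIs in 157 5% pdRBC cells and 101 UMIs in 399 hRBC cells, or 79.8 CPM (67 to 94.2) and 45.1 CPM (36.7 to 54.8), a 1.77-fold higher level in 5% pdRBC (1.36 to 2.31). It was the only 1 of 6 measured junction genes called there, where 12.4% of all genes were. Median depth in this cluster was 10361 UMIs in 5% pdRBC and 2085 UMIs in hRBC cells, and among cells of 5000 or more UMIs the fold was 1.72 (1.3 to 2.31), at 79.3 and 45.9 CPM. NCAPD3, the condensin gene on the strand opposite JAM3, was at 34.7 CPM in 5% pdRBC and 33.5 CPM in hRBC cells of cluster 6. With the cycling cluster left out, JAM3 was at 1.02-fold (0.939 to 1.11) over the libraries. That sum mixes cluster 2, where JAM3 was at 1.22-fold (1.03 to 1.47), with cluster 4, where it was at 0.61 (0.425 to 0.842). In clusters 0 and 5 the JAM3 interval held 1.

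Cluster 4 went the other way. It held 85 5% pdRBC cells with a median of 8216 UMIs and 1004 hRBC cells with a median of 1536 UMIs. Of 6 measured junction genes 4 were lower in 5% pdRBC, beside 22.5% of all genes called either way there. CDH5 had 577 CPM in 5% pdRBC and 738 CPM in hRBC (0.782, 0.7 to 0.87), CTNNB1 118 and 174 CPM (0.684), TJP1 96.5 and 144 CPM (0.676) and JAM3 58.5 and 96.7 CPM (0.61). Depth differed with the library in this cluster. Among its cells of 5000 or more UMIs, 67 in 5% pdRBC and 48 in hRBC, CDH5 was still lower at 0.8 (0.689 to 0.929). CTNNB1 at 0.73 (0.529 to 1.01), TJP1 at 0.972 and JAM3 at 0.906 had intervals that held 1.

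**Figure D5:**
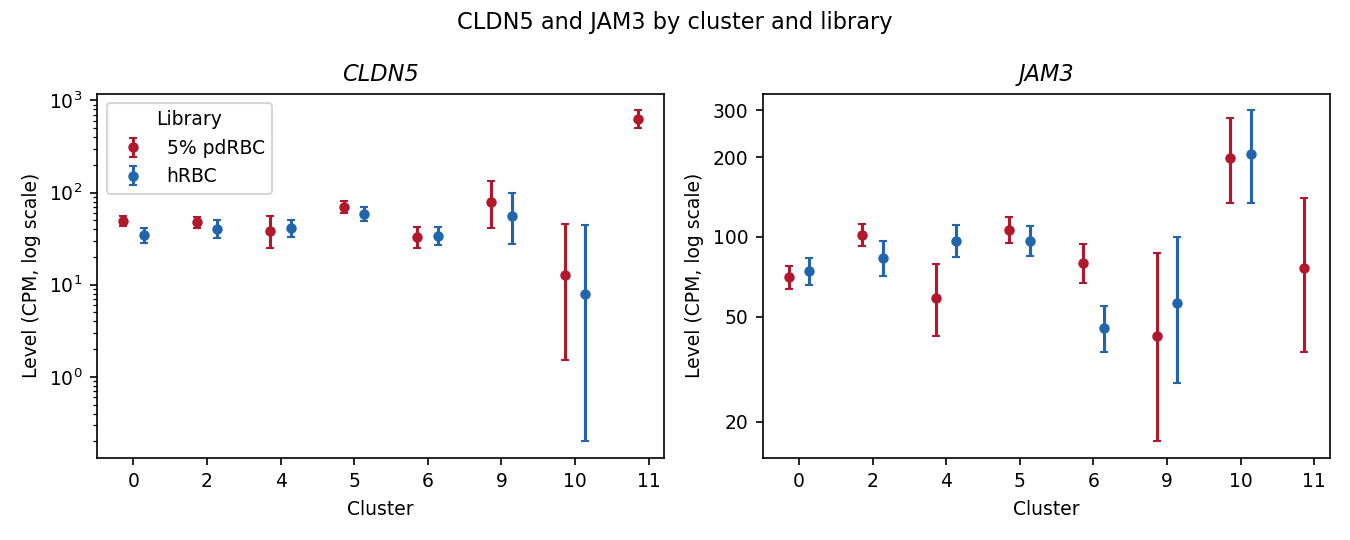
Level of CLDN5 (left panel) and JAM3 (right panel) in CPM on log axes, by cluster, in 5% pdRBC cells (red, left) and hRBC cells (blue, right), with 95% counting intervals. CLDN5 stands at 634 CPM in cluster 11, which has 5% pdRBC cells only, and JAM3 in cycling cluster 6 is at 79.8 CPM in 5% pdRBC and 45.1 CPM in hRBC.

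Part of the CLDN5 difference came from very few cells. Cluster 11 held 17 cells, all of the 5% pdRBC library, and CLDN5 was among its 10 leading genes with IFI6, ENTPD1, CCL14, CAVIN2, FOS, CLU and JUNB. CLDN5 was at 634 CPM (505 to 786) there and at 49.9 CPM in all other 5% pdRBC cells. Its 83 UMIs were 9.43% of the CLDN5 UMIs of the library, from cells with 0.813% of all UMIs. The signal was shared among the cells, since 16 of the 17 had a CLDN5 UMI, with a median of 4 and a highest of 18. Of the 17 cells 9 were at 500 CPM or more. Outside the cluster, among cells of 5000 or more UMIs, 13 of 1356 5% pdRBC and 2 of 769 hRBC cells reached that level. The 17 cells were not held to 5000 UMIs, and their lowest was at 4392 UMIs, so the sets of cells differ.

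Cluster 11 was endothelial by its markers but unlike the other HUVECs in several genes. PECAM1, an adhesion molecule of the lateral border, was at 1802 CPM in the cluster and 692 CPM in other 5% pdRBC cells. VWF, the platelet-tethering factor, was at 626 and 440 CPM, KDR, the VEGF receptor, at 61.1 and 162 CPM, and ERG, an endothelial transcription factor, at 183 and 192 CPM. Of the other junction genes CDH5 was at 412 CPM (310 to 538), ESAM at 321, CTNNB1 and TJP1 at 160 each, F11R at 107 (58.5 to 179) and JAM3 at 76.4. In these cells CLDN5 thus had 83 UMIs and CDH5 54, where the whole 5% pdRBC library had 880 and 9856. The cells had a median of 6637 UMIs and 2.44% mitochondrial UMIs, and the same 17 formed a cluster of their own at a finer resolution. With the cluster left out, CLDN5 was 1.23-fold higher in 5% pdRBC (1.1 to 1.37), below the 1.25-fold needed for a call. A cluster of 1 library may belong to that library and not to the treatment, and the 2 cannot be told apart here.

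Cluster 10 was low in CLDN5. It held 50 5% pdRBC cells and 48 hRBC cells and was led by LIX1-AS1, GLIS3 and PHLPP1. CLDN5 had 2 UMIs in its 5% pdRBC cells and 1 UMI in its hRBC cells, or 12.7 CPM (1.54 to 46) and 7.9 CPM (0.2 to 44), and its 48 hRBC cells are under the 50 cells set for a fold. ESAM was also low, at 102 CPM (58.3 to 166) in 5% pdRBC and 150 CPM (90.4 to 234) in hRBC. CTNNB1 stood high at 382 CPM (292 to 492) and 308 CPM (219 to 421), as did JAM3 at 198 CPM (134 to 280) and 205 CPM (134 to 301). These 4 genes thus moved alike in both libraries. CDH5 did not, with 382 CPM (292 to 492) in 5% pdRBC and 988 CPM (822 to 1177) in hRBC, from 60 and 125 UMIs. At the finer resolution the matching cluster had 57 and 51 cells, with CDH5 at 401 CPM in 5% pdRBC and 956 CPM in hRBC (0.421, 0.31 to 0.565). In cluster 10 the nuclear RNA MALAT1 was at 32335 CPM in 5% pdRBC and 24340 CPM in hRBC cells, ribosomal protein genes made up 4.3% and 5.15% of UMIs, and the median mitochondrial share was 9.89% and 5.09%. In cluster 0 these were 8335 and 8843 CPM, 13.7% and 16.3%, and 1.72% and 2.01%. The part of RNA quality in the junction values of cluster 10 was not tested.

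Across the 12 combinations of cluster and library, 7012 genes were ranked by how closely their log2(CPM + 1) followed each junction gene. The points share cells' library and depth, and the values are descriptions. The closest of so many genes over so few points can have a high r without any relation. The 11 points left without cluster 10 are among the same 12. For F11R the closest genes were JUP, which encodes plakoglobin, a catenin of adherens junctions and desmosomes (Pearson r = 0.90), SAT1 (0.88) and LIMS1 (0.83). The same 3 led for F11R when cluster 10 was left out, at 0.91, 0.90 and 0.89 over 11 points. For CTNNB1 they were MBD5, MACF1 and NEDD4L at 0.98, and the same 3 without cluster 10 at 0.94 to 0.95. For CDH5 they were AC110611.2, MSMO1 and RIT1 at 0.93, of which MSMO1 was kept without cluster 10. For CLDN5 they were PIGP and FAM174A at 0.96 and SPARC at 0.95, of which FAM174A was kept, at 0.90. For JAM3 SIN3B (0.94), ZDHHC1 and SIK2 (0.93 each) led, for TJP1 DDHD1, MSI2 and GPCPD1 (0.97 each) and for ESAM CD59, RHOC and EIF1 (0.99 each). Without cluster 10, SIN3B and ZDHHC1 were kept for JAM3 and none of the 3 for TJP1 or ESAM.

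Among the junction genes themselves CLDN5 followed ESAM (r = 0.89) and CDH5 followed ESAM (0.77), while CTNNB1 followed JAM3 (0.84) and TJP1 (0.80) and ran opposite to ESAM (-0.80). Cluster 10 carried much of this. Without it the values were 0.58 for CLDN5 with ESAM, 0.54 for CDH5 with ESAM, 0.61 for CTNNB1 with JAM3, 0.60 for CTNNB1 with TJP1 and -0.15 for CTNNB1 with ESAM. CDH5 with CTNNB1 changed sign, with -0.33 over all 12 points and 0.57 over the 11 without cluster 10. CLDN5 with F11R, at 0.14 over the 12 points, was at 0.72 over the 11, the highest of all pairs there.

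Genes that work with the 9 were read in lists, by the same 1.25-fold calls. Among all measured genes 5.24% were called higher and 3.62% lower. Lists this short may hold no call at that share, so the absence of calls in this paragraph is not read as a result. Of 14 adherens partners and related adhesion molecules, all 14 were measured, none was called in either direction, and the median log2 fold was 0.01. CTNND1, which encodes p120-catenin, a stabiliser of VE-cadherin at the membrane, had 106 CPM in 5% pdRBC cells and 107 CPM in hRBC cells. CTNNA1, the gene of α-catenin, had 197 and 187 CPM, and PTPRB, the phosphatase VE-PTP that associates with VE-cadherin, had 184 and 186 CPM. The 8 other adhesion molecules of the lateral border also gave no call, with a median of -0.05. PECAM1 among them had a fold of 0.868 (0.845 to 0.891), at 701 CPM in 5% pdRBC and 807 CPM in hRBC. Of 5 connexins, the gap junction proteins, 4 were measured and none was called, with a median of -0.21.

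The lists below are counted by the same 1.25-fold calls, which 5.24% of all measured genes passed upwards and 3.62% downwards. Of 17 other claudins and tricellular junction genes 5 were measured, and 1 was called, CLDN14, at 41.3 CPM in 5% pdRBC and 29.8 CPM in hRBC (1.39-fold higher, 1.22 to 1.58). CLDN1, CLDN3, CLDN4 and CLDN7, claudins of epithelia, were too low to measure. Of 17 scaffold and polarity genes 10 were measured, with 2 called higher, 2 called lower and a median of 0.12. MAGI1, a scaffold with several PDZ domains that binds at junctions, was 1.37-fold higher in 5% pdRBC (1.27 to 1.48), at 119 and 86.6 CPM. MPDZ, also a multi-PDZ scaffold, was 1.27-fold higher (1.14 to 1.42), at 51.9 and 40.9 CPM. PATJ, a polarity scaffold, was 1.46-fold lower (1.07 to 2), at 4.78 and 6.99 CPM, and CGNL1, paracingulin, 1.28-fold lower (1.04 to 1.58), at 11.1 and 14.2 CPM.

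Among 27 regulators of junctions 25 were measured, 2 were called lower and none was called higher at 1.25-fold, with a median of -0.04. TEK, which encodes the angiopoietin receptor TIE2, had 88 CPM in 5% pdRBC and 119 CPM in hRBC cells (1.36-fold lower, 1.26 to 1.46). HEG1, a transmembrane partner of the CCM proteins that stabilise junctions, had 91.7 and 118 CPM (1.29-fold lower, 1.2 to 1.38). Of 12 transcription factors known to act on CDH5 or CLDN5, 11 were measured, with 2 called higher, 1 called lower and a median of 0.02. SOX18, an endothelial SOX factor, had 222 CPM in 5% pdRBC and 370 CPM in hRBC (1.67-fold lower, 1.6 to 1.74). SNAI1, a repressor of cadherin genes, was 1.36-fold higher (1.23 to 1.51), at 63 and 46.4 CPM. FOXO1, a repressor of CLDN5, was 1.25-fold higher (1.17 to 1.35), at 120 and 96 CPM. ERG, an activator of CDH5 and CLDN5, was level at 192 and 189 CPM.

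CTNNB1 also acts in the nucleus, and 14 transcription targets of Wnt and β-catenin were read for that reason. Only 4 were measured, with 1 called higher, 1 called lower and a median of 0.07. AXIN2, a common readout of the pathway, had 33 UMIs in 5% pdRBC and 38 UMIs in hRBC and fell under the minimum. MYC was 1.46-fold higher in 5% pdRBC (1.32 to 1.63), at 58.9 and 40.3 CPM, and DKK1, an inhibitor of Wnt signalling, was 1.5-fold lower (1.41 to 1.59), at 128 and 191 CPM. MYC and DKK1 are also targets of other pathways.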

How the data were processed

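Per the submitters' processing notes and the file headers, the authors made the deposited UMI counts (raw, per gene and cell barcode) with Cell Ranger 7.0.0 on GRCh38. The annotation release, the use of strand and any further filter were not given in these sources. Gene positions and transcript lengths came from GENCODE 29, which 34616 of 36601 gene IDs (94.6%) matched. A barcode was kept with at least 1000 UMIs and 500 genes and no more than 20% mitochondrial UMIs (1601 in 5% pdRBC, 2555 in hRBC). No doublet caller was run, and all kept cells were left in. Scanpy 1.11.5 clustered both libraries together without integration (2000 variable genes, 30 principal components, 15 neighbours, Leiden resolution 0.5 with python-igraph 0.11.9, seed 0).

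Naming a cluster endothelial-like took 3 of 10 endothelial markers at 3 UMIs or above. Clusters were not named when another type had more markers than endothelium among the 10 leading genes. Cycling and lymphatic markers did not count as another type. Nor were clusters named whose median UMIs fell under 1/3 of the library's with no endothelial marker among those 10. These rules left out 1 cluster of 14 5% pdRBC cells and 1 of 13 hRBC cells, and the names are rebuilt from the counts. The 13 hRBC cells were left out for KRT18 alone, and had CDH5 at 1084 CPM (726 to 1557). UMIs were summed over endothelial-like cells and divided by their total to give CPM. Folds put 5% pdRBC over hRBC, after adding 0.5 UMIs to both sums. Fold intervals (95%) came from the exact Clopper-Pearson method applied to how a gene's UMIs divide between the libraries, levels have exact Poisson intervals, and shares exact binomial ones. All cover counting error only. A count of 0 allows up to 3 counts, here 0.186 CPM in 5% pdRBC and 0.225 CPM in hRBC. Genes with 100 or more UMIs over both libraries were measured, and a call needed 1.25-fold and an interval without 1. The calculation of folds and intervals was tested on simulated data.

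The 9 genes, the related lists, the markers and the rules were chosen with earlier results of these data known. Named genes are the 9, up to 4 called genes of each related list with the largest folds, and the 3 genes most correlated with a member over clusters. Such genes were sought for members with 500 or more UMIs over both libraries, which left out OCLN and JAM2. Clusters singled out, and list genes given without a call, were chosen after their values were seen. Alternatives covered the cells summed, cell filter, depth, weighting, scaling, cycling cells, clustering resolution, pseudocount and count minimum.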

Additional observations from a re-analysis of the deposited data

How the results depend on the processing

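The count of 1 junction gene past 1.25-fold, which was CLDN5, fell to 0 with cells thinned to 2000 UMIs, 0 with clusters of 1 library left out, 0 with the CLDN5-high cluster left out and 0 at a 1.5-fold limit. It was 1 under each of the other alternatives run. The settings that leave out clusters were chosen after seeing the data. CLDN5 was on the higher side in 5% pdRBC in all 15 alternatives, with log2 folds of 0.16 to 0.54. Not all of them could move it. The count minimums of 20 and 500 UMIs cannot change a gene's fold. Resolution 1.0 and the lack of a pseudocount left that of CLDN5 at 1.34 (1.21 to 1.5). With thinning to 2000 UMIs, which holds 157 and 124 CLDN5 UMIs, the CLDN5 fold was 1.11 (0.876 to 1.42). CDH5 stayed between -0.18 and -0.07, ESAM between -0.15 and -0.05, TJP1 between -0.09 and -0.03, CTNNB1 between 0.09 and 0.17 and F11R between 0.02 and 0.14. JAM3 ranged from -0.02 with thinning and -0.01 with every cell weighted equally to 0.24 in cells of 5000 or more UMIs. The median over the measured junction genes was 0.11 and ranged from -0.02 with thinning to 0.14 with the stricter cell filter, each beside 0.01 and 0.03 over all genes. With cells weighted equally no interval was made, and 11.7% and 10.8% of all genes were past 1.25-fold higher and lower. In cells of 5000 or more UMIs of cluster 2, JAM3 passed 1.25-fold, at 1.29 (1.07 to 1.56). At resolution 1.0 the library sums were the same, and JAM3 in the cycling cluster was at 1.76 (1.35 to 2.31). Calls by cluster changed otherwise: JAM3 was at 1.38 (1.13 to 1.71) in a cluster led, like cluster 2, by AL356124.1, CTNNB1 at 0.72 (0.581 to 0.895) in a cluster of 153 and 100 cells and 2.01 (1.26 to 3.33) in one of 51 and 52 cells, and CLDN5 at 1.42 (1.07 to 1.89) in one of 193 and 269 cells. No paired analysis was possible because each group has 1 library. Depth limits OCLN and JAM2, the clusters of few cells and all shares without thinning.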

Other observations

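The 1303 hRBC barcodes left out by the cell filter, with a median of 755 UMIs, differed from the hRBC endothelial-like cells most clearly in CTNNB1. It was at 220 CPM (192 to 251) in the left-out barcodes and 160 CPM (153 to 167) in those cells. JAM3 was at 100 CPM (81.5 to 122) in them and 78.9 CPM (74.2 to 83.8) in those cells. CDH5 was at 641 CPM (592 to 693) in them, CLDN5 at 50.7 CPM (37.6 to 66.8), ESAM at 249 CPM and TJP1 at 131 CPM, with 5 OCLN UMIs. The 34 barcodes left out of the 5% pdRBC library held 15 CDH5 UMIs, or 486 CPM (272 to 801). In the cells of cluster 9, led by the chemokine and adhesion genes CCL20, SELE and CXCL1, CDH5 was at 662 CPM (544 to 798) in 17 5% pdRBC cells and 769 CPM (651 to 902) in 95 hRBC cells, and CLDN5 at 78.2 CPM (41.7 to 134) and 56 CPM (28 to 100).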
